A study of Mus musculus with 6 samples.

Results

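Serine, one-carbon and asparagine synthesis was examined through 10 enzymes that are known targets of Atf4: Asns, Phgdh, Psat1, Psph, Shmt1, Shmt2, Mthfd2, Aldh18a1, Pycr1 and Gpt2. A probe belonged to an enzyme when the RefSeq accession printed for it on the array led to that symbol. This gave 13 probes of 9 genes among 39429 probes, and all 13 lay well above background on all 6 arrays. No probe could be paired with Pycr1 through the table of accessions used, so Pycr1 was not analysed here beyond its promoter.

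The tissue was the head with the first branchial arch, from which the jaws form, dissected from mice at embryonic day 9.5. Wild type heads gave 3 samples and heads labelled null for Arid3b gave another 3; Arid3b is a nuclear protein that binds DNA through its ARID domain. Each sample pooled 4 embryos and was read on 1 one-colour Agilent array. The allele, the strain and whether the embryos were littermates are not given in the sources used here. Nothing states that pools of a group were independent litters, and the p-values reflect the spread between these pools, which may be technical.

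Each array had 67.9% to 70.3% of its non-control spots well above background and a 75th percentile of signal of 626 to 977. Arrays with the same replicate number shared 1 of 3 slides. Wild type always lay in position 1 and null in position 2 of a slide, and genotype cannot be told apart from position. The Arid3b probe read 1.98, 2.26 and 3.09 on the wild type arrays and 1.27, 1.06 and 1.44 on the null arrays, as log2 signal relative to the 75th percentile. It was lower on every null array, with a log2 difference of -1.19 ± 0.29, and still read above that percentile there; whether it lies in a deleted stretch is not known here. All 14 head markers examined passed the filter on dim probes, among them Otx2 and Twist1, and none of 6 liver and gut markers did.

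The enzymes belong to short routes out of central metabolism. Phgdh, Psat1 and Psph turn a glycolytic intermediate into serine in consecutive steps, and the serine hydroxymethyltransferases Shmt1 and Shmt2 split serine into glycine and a one-carbon unit carried on folate. Mthfd2 oxidises that unit in mitochondria, and one-carbon units are used to make purines and thymidylate. Aldh18a1 and Pycr1 make proline, Asns makes asparagine, and Gpt2 is the mitochondrial alanine aminotransferase. Atf4 is a transcription factor whose translation rises when cells lack amino acids or meet other stresses, and with C/EBP partners it binds a composite element near the start of target genes.

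The stretches before the starts of the 4 genes that were called higher in null heads are shown because Atf4 is known to act on such genes through that element. Each has 250 bases, 5′ to 3′ on the strand of the gene and ending just before the annotated start, from RefSeq on GRCm38.p6: Asns chr6:7693210-7693459 (minus strand), Gpt2 chr8:85492326-85492575 (plus strand), Shmt2 chr10:127522445-127522694 (minus strand) and Mthfd2 chr6:83317605-83317854 (minus strand). Capitals mark matches on either strand to the composite element TGATGNAA or to its first 5 bases alone, TGATG, which reads CATCA on the other strand.
Asns: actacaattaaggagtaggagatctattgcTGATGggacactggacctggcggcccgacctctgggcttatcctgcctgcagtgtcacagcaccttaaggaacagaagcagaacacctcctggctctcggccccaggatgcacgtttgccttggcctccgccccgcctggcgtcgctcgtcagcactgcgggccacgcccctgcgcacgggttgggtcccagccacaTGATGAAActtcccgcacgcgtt
Gpt2: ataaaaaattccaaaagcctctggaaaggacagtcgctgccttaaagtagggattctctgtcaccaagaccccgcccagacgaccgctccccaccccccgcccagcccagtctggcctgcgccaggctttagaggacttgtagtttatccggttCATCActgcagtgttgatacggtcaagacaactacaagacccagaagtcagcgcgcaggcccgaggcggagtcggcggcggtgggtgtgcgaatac
Shmt2: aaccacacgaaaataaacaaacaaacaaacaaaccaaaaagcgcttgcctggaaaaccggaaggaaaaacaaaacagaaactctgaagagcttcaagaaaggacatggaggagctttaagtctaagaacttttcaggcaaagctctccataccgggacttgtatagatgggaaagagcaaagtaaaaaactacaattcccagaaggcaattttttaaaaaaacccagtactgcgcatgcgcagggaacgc
Mthfd2: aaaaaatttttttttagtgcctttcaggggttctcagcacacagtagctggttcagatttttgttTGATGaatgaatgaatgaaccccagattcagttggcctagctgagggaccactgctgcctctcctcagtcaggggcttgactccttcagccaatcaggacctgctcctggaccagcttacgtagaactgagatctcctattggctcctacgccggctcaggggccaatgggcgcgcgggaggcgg
Asns held 1 whole match, TGATGAAA, with its first base 23 bases before the start, and 1 separate match to TGATG. Gpt2 and Mthfd2 held 1 match to TGATG each, and Shmt2 had no match of either kind.

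All 10 enzymes had a window, which ran from 250 bases before to 50 bases after the start, and Psat1 had 2 starts. The whole element stood in the windows of Asns and Pycr1, 2 of 10 genes, against 4.51% of the 27025 genes with a window of 300 bases. The shorter TGATG, which every whole match contains, stood in 5 of 10 enzymes against 42.9% of all genes. The match in Pycr1 was TGATGCAA, with its first base 103 bases before the start, and Aldh18a1 held 1 match to TGATG alone. These matches describe letters in a window and say nothing about binding in these heads.

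**Figure D1:**
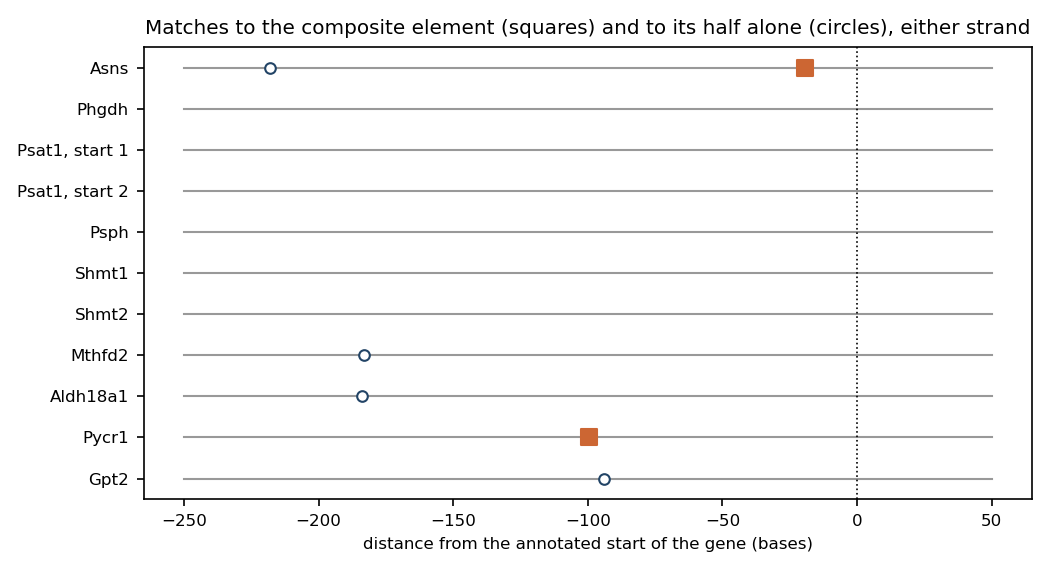
Positions of the composite element TGATGNAA (squares) and of TGATG alone (circles) around the annotated starts of the 10 enzymes; the horizontal axis is the distance from the start in bases and each line is 1 window, with 2 for Psat1. Squares appear for Asns and Pycr1 alone among these windows, and Phgdh, Psat1, Psph, Shmt1 and Shmt2 have neither kind of match.

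The comparison asked which of these enzymes differ in RNA level between null and wild type heads. Asns, Gpt2, Shmt2 and Mthfd2 were higher in null heads, by 1.89-fold to 2.83-fold, and no member was called lower. The 3 enzymes that make serine lay 1.27-fold to 1.45-fold above wild type and did not pass the test, Aldh18a1 lay 1.78-fold above with a wide interval, and Shmt1 pointed the other way. The rises covered 4 of 9 measured enzymes, where 12.3% of all 14906 genes tested were called higher (limma, Benjamini-Hochberg adjusted p under 0.05). The median log2 difference, null minus wild type, was 0.83 over the 9 genes and -0.04 over all genes. In 7 of the 9 enzymes every null array lay above every wild type array, as in 20.6% of all genes; the groups were apart in either direction in 42.4% of all genes. In pools of whole heads, fewer cells of a type and less RNA per cell cannot be told apart.

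Levels are log2 of the processed signal relative to the 75th percentile of the same array, so a level of 0 equals that percentile, and levels of different probes are not comparable. Differences are null minus wild type on that log2 scale, ± their standard error as limma estimates it over 3 arrays in each group. Where a gene had more than 1 probe, the brightest stood for it, and the other probes of the enzymes are given from a fit over all 26288 probes kept.

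Asns, asparagine synthetase, moved most among these enzymes. Its levels were 3.70, 3.71 and 3.36 in wild type replicates 1, 2 and 3, and 5.0, 5.28 and 5.0 in null replicates 1, 2 and 3. The groups were far apart, with the lowest null array above the highest wild type array by more than either group's whole range. The mean rose from 3.59 ± 0.20 to 5.09 ± 0.16 (SD, n = 3), a log2 difference of 1.5 ± 0.16, with a limma adjusted p of 0.00209. Within slides 1, 2 and 3 the difference was 1.29, 1.57 and 1.64. Only 1.96% of all genes tested had a larger rise.

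Gpt2, the mitochondrial enzyme that makes alanine from pyruvate, was nearly as far apart. Its levels were 0.04, -0.06 and 0.26 in wild type heads and 1.43, 1.33 and 1.61 in null heads. The difference was 1.37 ± 0.15, a 2.59-fold rise, with a limma adjusted p of 0.00211. It was the steadiest of the enzymes across slides, at 1.39, 1.39 and 1.35.

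Shmt2, which releases one-carbon units from serine in mitochondria, was 2.17-fold higher. Its levels were 2.10, 2.32 and 2.74 in wild type heads and 3.52, 3.27 and 3.70 in null heads, without overlap. The difference was 1.12 ± 0.21 with a limma adjusted p of 0.0107, and 1.42, 0.96 and 0.96 within slides 1, 2 and 3. In the fit over all probes its adjusted p was 0.0146, and that call was lost without null replicate 1 (0.0617) or null replicate 3 (0.0603).

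Mthfd2, the mitochondrial dehydrogenase and cyclohydrolase that acts on those units, was the weakest of the 4 calls. Its levels were 1.09, 1.22 and 1.86 in wild type heads and 2.41, 2.04 and 2.46 in null heads. Wild type replicate 3 came close to null replicate 2 without reaching it. The difference was 0.91 ± 0.24, a 1.89-fold rise, with a limma adjusted p of 0.0321. Within slides 1, 2 and 3 it was 1.32, 0.82 and 0.60. The call was lost without wild type replicate 1 (adjusted p of 0.0909) or 2 (0.0902), without null replicate 1 (0.114), 2 (0.0513) or 3 (0.112), and without the filter on dim probes (0.0691), with 0.00176 to 0.114 over its alternatives.

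Phgdh, Psat1 and Psph, the consecutive enzymes of serine synthesis, were each higher on every null array than on any wild type array, and none was called in the fit over genes. Phgdh, the first and committed step, had levels of 4.18, 4.18 and 4.26 in wild type heads and 4.44, 4.44 and 4.79 in null heads. Its difference was 0.35 ± 0.15 (adjusted p of 0.133), and 0.47 ± 0.17 on its other probe (0.100). The spread of its wild type arrays was small, and null replicate 3 was the high one: without it the difference was 0.23.

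Psat1, the aminotransferase of the middle step, had levels of 3.95, 3.85 and 3.52 in wild type heads and 4.17, 4.25 and 4.19 in null heads, a difference of 0.43 ± 0.15 (adjusted p of 0.0822). Its second probe had levels of -0.89, -0.99 and -0.82 against -0.38, -0.40 and -0.02, and was called, at 0.63 ± 0.16 with an adjusted p of 0.0385. The 2 probes agreed in direction and differed in which side of the threshold they fell on. The gene as a whole passed with the mean of its probes (0.53, adjusted p of 0.0251), with quantile normalization (0.61, 0.0152), in the deposited value table (0.65, 0.0210) and with array weights (0.34, 0.0336). The second probe lost its call when any 1 array other than wild type replicate 3 was left out (adjusted p of 0.0804 to 0.121), without the filter on dim probes (0.0999), with median centring (0.0571) and in the deposited table (0.0531).

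Psph, the phosphatase that completes serine, varied more between wild type pools. Its levels were 0.53, 0.42 and -0.19 in wild type heads and 0.63, 1.09 and 0.65 in null heads, a difference of 0.54 ± 0.23 (adjusted p of 0.142). The second probe gave 0.60 ± 0.20 (0.0865). Wild type replicate 3 was the low array on both probes, and without it the first gave 0.31. On slide 1 the 2 Psph probes differed between genotypes by only 0.10 and 0.17, against 0.84 and 1.03 on slide 3.

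**Figure D2:**
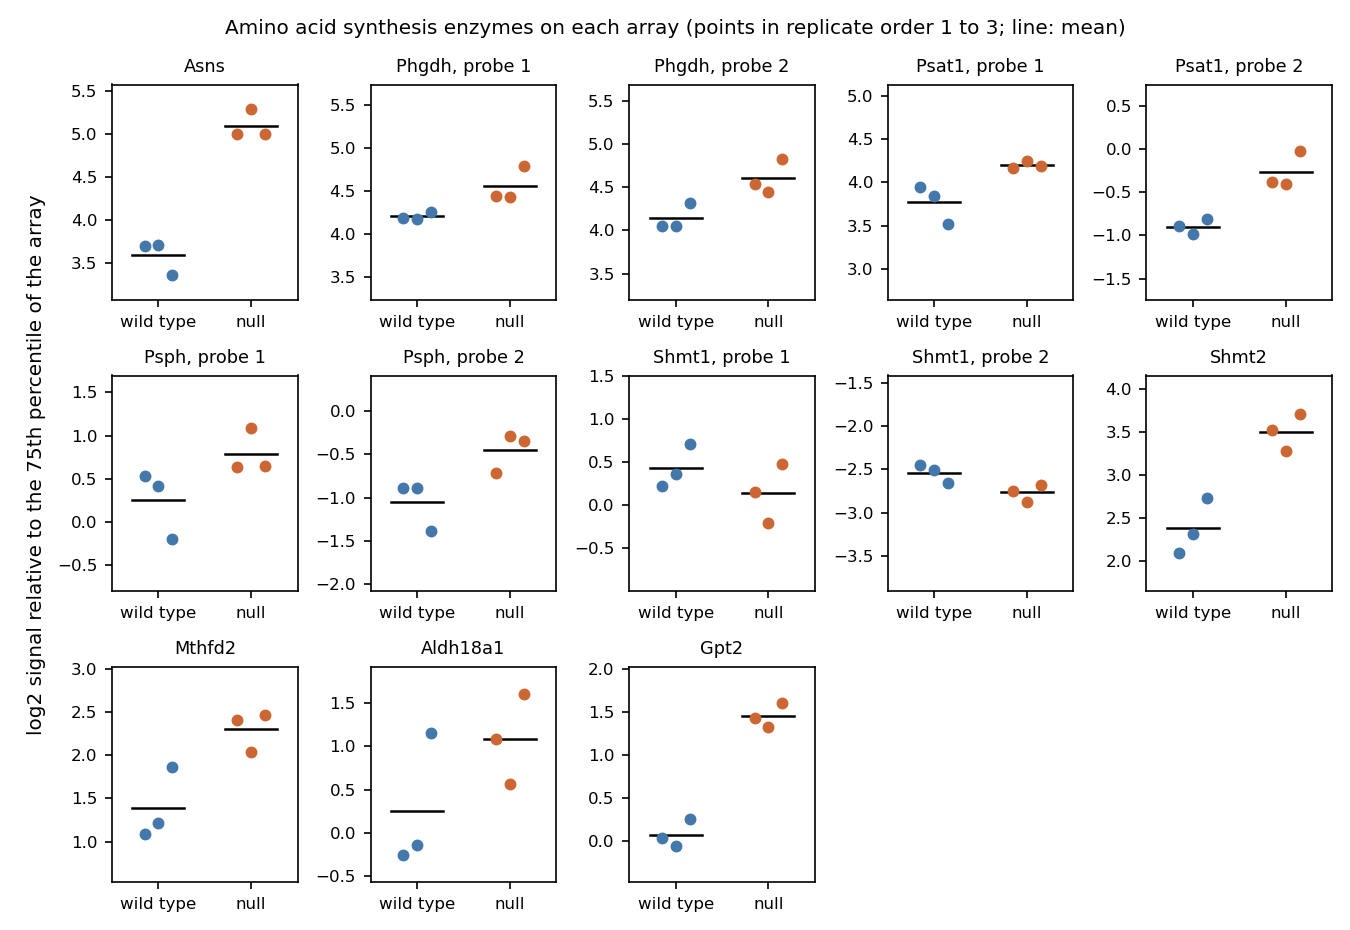
Levels of the 13 probes of 9 enzymes on each array, as log2 signal relative to the 75th percentile of that array (vertical axis; every panel spans the same number of log2 units); points are wild type (blue) and null (orange) replicates 1 to 3 from left to right and lines are group means. Asns and Gpt2 show the widest gaps between groups, Aldh18a1 and the first Shmt1 probe overlap, and only the Shmt1 probes lie lower in null heads.

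Shmt1, the cytosolic counterpart of Shmt2, was the only measured member below wild type. Its levels were 0.22, 0.36 and 0.70 in wild type heads and 0.16, -0.20 and 0.48 in null heads, and the groups overlapped. The difference was -0.29 ± 0.22 with a 95% interval of -0.80 to 0.23 (adjusted p of 0.380). It was -0.11 without null replicate 2, -0.15 without wild type replicate 3 and -0.45 without null replicate 3. The second, dimmer probe gave -0.23 ± 0.14 (0.312), with all its null arrays below all its wild type arrays.

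Aldh18a1, which makes the precursor of proline, had the widest spread between arrays. Its levels were -0.25, -0.14 and 1.15 in wild type heads and 1.09, 0.57 and 1.61 in null heads, so wild type replicate 3 lay above 2 of the 3 null arrays. The difference was 0.83 ± 0.42 (adjusted p of 0.200; 95% interval -0.17 to 1.84). The arrays of slide 3 were the highest of both groups, and within slides 1, 2 and 3 the difference was 1.34, 0.71 and 0.45. With the slide, and so the replicate number, as a block, Aldh18a1 was called higher in the fit over genes (0.83 ± 0.20, adjusted p of 0.0391) but not in the fit over probes (adjusted p of 0.0571). It was also called with array weights (1.15, 0.0122) and without wild type replicate 3 (1.29, 0.0181).

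Probe by probe, 5 of 13 were called higher and none lower, where 9.38% of all probes kept were called higher and 8.58% lower. On 10 of the 13 the null arrays all lay above the wild type arrays, as on 18.3% of all probes kept. Within each of the 4 genes that had 2 probes, both pointed the same way. The size of the difference ordered the slides in unlike ways: for Phgdh, Psat1 and Psph every probe was highest on slide 3, whereas Shmt2, Mthfd2 and Aldh18a1 were highest on slide 1.

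**Figure D3:**
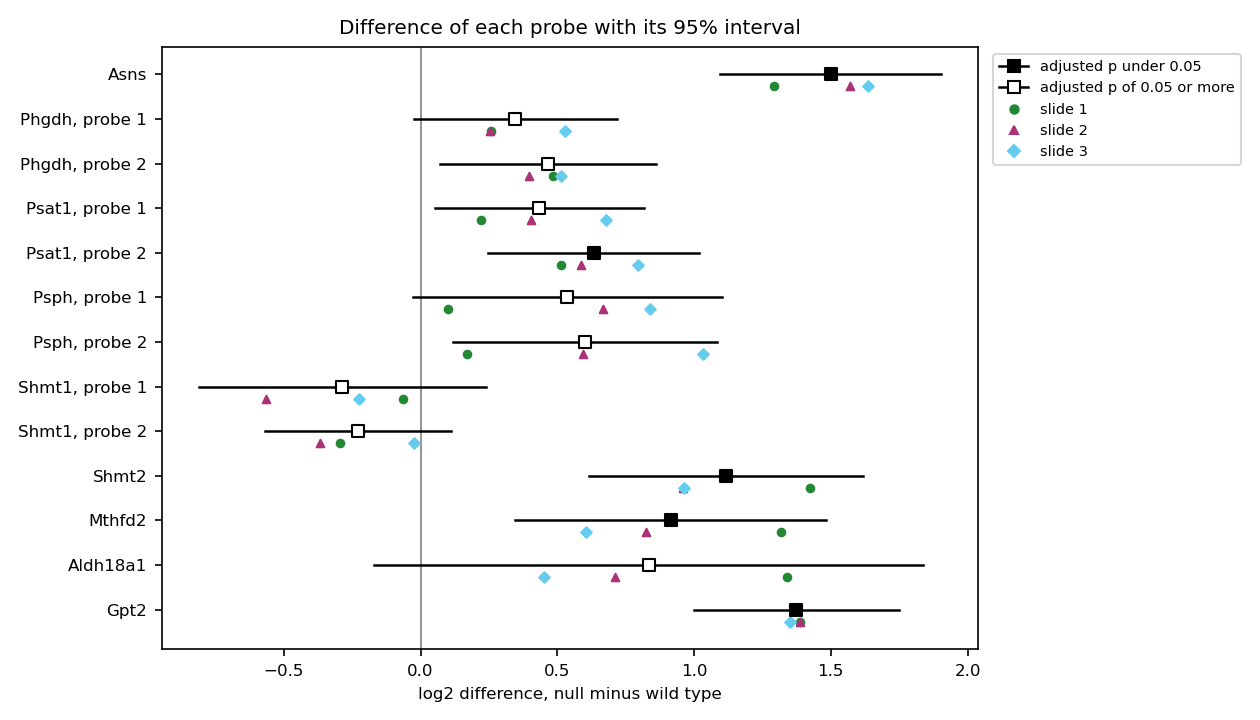
Log2 difference, null minus wild type, of each of 13 probes (horizontal axis), with squares for the limma estimate, lines for its 95% interval, filled squares for an adjusted p under 0.05 over all probes kept, and small symbols for the difference within slides 1, 2 and 3. The squares of Asns, Psat1 probe 2, Shmt2, Mthfd2 and Gpt2 are filled, and every slide gives a value above 0 except for the Shmt1 probes.

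Several of these enzymes have a counterpart in the other compartment, and 5 mitochondrial and cytosolic pairs were compared by the log2 ratio of their signals within each array; the pairs were chosen after values had been seen. The ratio of Gpt2 to Gpt, the cytosolic alanine aminotransferase, was higher in null heads by 1.85, with Gpt itself at -0.48 ± 0.16 (adjusted p of 0.0723). The ratio of Shmt2 to Shmt1 was higher by 1.4, and by 1.49, 1.52 and 1.19 within slides 1, 2 and 3. Aldh1l2 against Aldh1l1, the formyltetrahydrofolate dehydrogenases of the 2 compartments, changed by 2.88, and Mthfd1l against Mthfd1, the formyltetrahydrofolate synthetases, by 0.62. The Mthfd1l probe used gave 0.43 and its other probe 0.77 ± 0.24, and neither was called. Got2 against Got1, the aspartate aminotransferases, went the other way, at -0.43. Bcat2 and Bcat1, also a mitochondrial and cytosolic pair in the lists, were not among the 5 compared. They gave 0.03 ± 0.22 and -0.13 ± 0.34 and were not called, with 0.15 and 0.20 on the other Bcat1 probes. An exact two-sided permutation test over arrays gave p of 0.10, the smallest that 3 against 3 arrays allow, for the first 4 pairs and 0.20 for Got2 and Got1 (0.125 and 0.20 adjusted over the 5 pairs), so none could pass.

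Other genes of these routes, of the Atf4 axis and of amino acid transport were read from 8 lists with 102 genes that are not members. Of these, 101 were measured, with 27 called higher and 7 lower. The rises were uneven between lists: 10 of 19 genes in the Atf4 axis and 6 of 11 transporters rose. Each of the other lists, which hold the genes of the routes, had 0 to 3 rises. Among all genes tested, 12.3% were called higher and 11.2% lower. With only probes above background on all arrays, 99 genes of the lists were measured, 25 called higher and 7 lower.

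Of 19 other genes of the folate cycle, 2 rose and 2 fell, with a median of -0.19. Aldh1l2, which oxidises formyl-folate in mitochondria, had levels of -5.59, -5.51 and -5.26 in wild type heads and -2.91, -2.83 and -2.68 in null heads. It was 6.26-fold higher (2.65 ± 0.15, limma adjusted p of 3.89e-04), and 1.11 on the log2 scale with normexp background correction. Ftcd, which feeds histidine carbon into folate, was not well above background on any wild type array. It passed the filter on dim probes through the null group alone and was called there (limma adjusted p of 0.00143). With wild type values raised to the dimmest probe above background on their array, its processed signal was 2.60-fold higher in null heads. Normexp gave 0.07 (0.802), so this rise holds for the processed signal alone. Tyms, thymidylate synthase, had levels of -1.50, -1.66 and -1.46 in wild type heads and -2.77, -3.32 and -3.06 in null heads. It fell by 1.51 ± 0.17 on the log2 scale (0.00250).

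The glycine cleavage system breaks glycine down in mitochondria, and 1 of its 4 genes fell while none rose. Gcsh, its lipoyl carrier protein, fell by 0.61 ± 0.13 (limma adjusted p of 0.0160). Its other probes gave -0.55 and -0.13, and its call was lost with the mean of its probes (0.0529), in the deposited table (0.0692) and without any 1 array other than wild type replicate 3 (0.0537 to 0.0626). Dld (-0.34 on its other probe), Gldc and Amt gave -0.41, -0.64 and 0.12 and were not called. Without wild type replicate 3, Dld (-0.48, 0.0287) and Gldc (-0.94, 0.0083) were called lower.

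Of 9 genes of the methionine cycle and of transsulfuration, which carries homocysteine and serine to cysteine, 3 rose and 1 fell. Cbs, the step that joins serine to homocysteine, had levels of -1.51, -1.48 and -1.09 in wild type heads and -0.02, -0.08 and 0.05 in null heads, a 2.54-fold rise (1.34 ± 0.16, limma adjusted p of 0.00262). Cth, which releases cysteine, rose by 0.76 ± 0.19 (0.0270; 0.83 on its other probe), and Ahcyl1, a relative of the enzyme that hydrolyses adenosylhomocysteine, by 0.62 ± 0.15 (0.0233; 0.54 on its other probe). Mat2a, which makes the methyl donor S-adenosylmethionine, had levels of 5.28, 5.04 and 5.01 against 3.82, 3.84 and 3.67 and fell by 1.33 ± 0.14 (0.00180; -0.80 on its other probe). Cth lost its call when wild type replicate 2 (0.0581) or any null array (0.0683 to 0.0948) was left out. Ahcyl1 lost its call when wild type replicate 1 (0.0599) or 2 (0.0685), or null replicate 1 (0.0756) or 3 (0.0678), was left out. Both lost it without the filter on dim probes (0.0601 and 0.0529).

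Among 20 measured enzymes of other amino acids 3 rose and none fell, with a median of -0.05. Gls2, a glutaminase of mitochondria, had levels of -2.36, -1.79 and -2.06 in wild type heads and -0.62, -0.54 and -0.48 in null heads, a 2.87-fold rise (1.52 ± 0.17, limma adjusted p of 0.00250). Asl, of arginine synthesis, rose by 0.68 ± 0.17 (0.0290), and Srr, which makes D-serine, by 0.51 ± 0.12 (0.0257; 0.81 on its other probe, not called at 0.0641). Asl lost its call without any 1 array other than wild type replicate 3 (0.0566 to 0.0841), and Srr likewise (0.0622 to 0.0984); both lost it without the filter on dim probes (0.0633 and 0.0566), and Srr with normexp (0.32, 0.103) and in the deposited table (0.0540).

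Purine synthesis, a main user of one-carbon units, had 1 rise and no fall among 13 genes, with a median of -0.12. The rise was Adssl1, the muscle form of adenylosuccinate synthase, at 1.94 ± 0.20 (limma adjusted p of 0.00172). The widely expressed form Adss, Prps2 of phosphoribosyl pyrophosphate supply and Pfas of the purine ring gave -0.40, -0.61 and -0.37 and were not called; Prps2 was called lower without null replicate 3 (-0.85, 0.0246) and Pfas without wild type replicate 3 (-0.52, 0.0222). In lower glycolysis, from which the serine route branches, Pgk1 rose by 1.28 ± 0.13 (0.00178) and Pgam1, just past the branch, by 0.47 ± 0.14 (0.0449), while Bpgm, which turns a neighbouring intermediate into bisphosphoglycerate, fell by 0.85 ± 0.13 (0.00555). The Pgam1 call was lost with the replicate block (0.0560), with median centring (0.0677), with dim probes kept in (0.0892) and when any 1 array was left out (0.0550 to 0.143). Eno1 gave 0.23 ± 0.15 (0.308), with 0.14 without wild type replicate 1, 0.35 without wild type replicate 3 and 0.31 with array weights (0.0478).

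**Figure D4:**
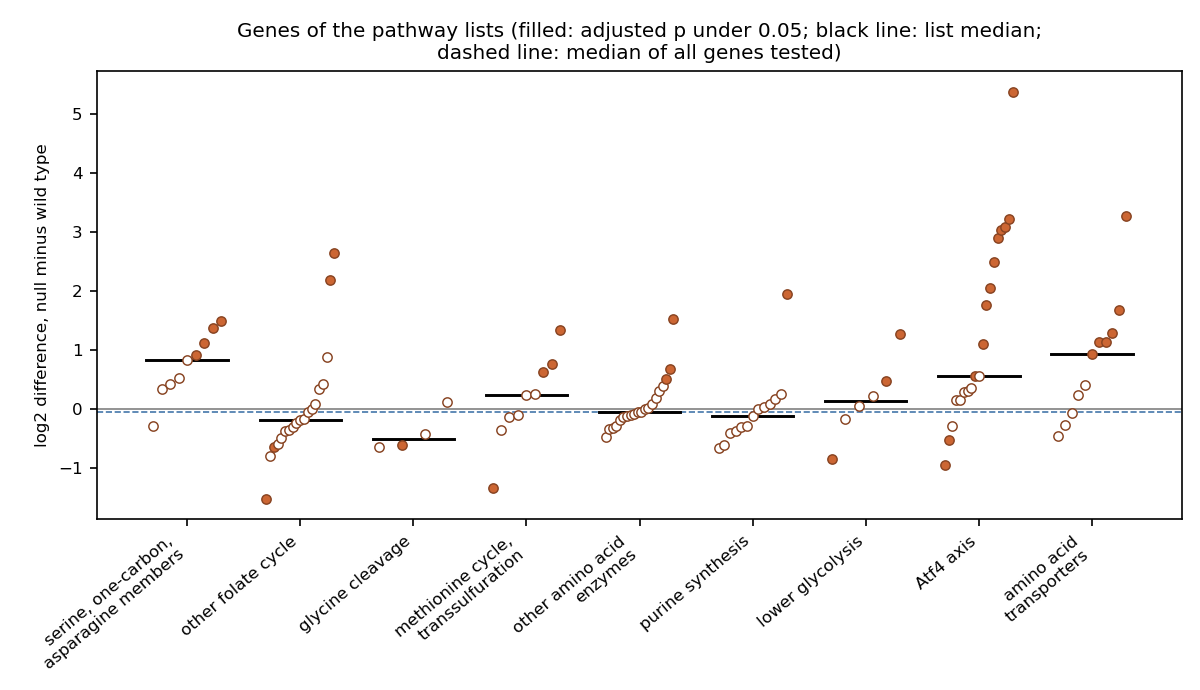
Log2 difference, null minus wild type, of every measured gene (points, arranged by size within a list) in the group of serine, one-carbon and asparagine enzymes and in 8 related lists; filled points had an adjusted p under 0.05, black lines are list medians and the dashed line is the median of all genes tested. The medians are 0.83 for the enzymes, 0.56 for the Atf4 axis and 0.93 for amino acid transporters, against -0.19 for the folate cycle and -0.12 for purine synthesis.

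Atf4 RNA itself was bright and was not called different. Its levels were 5.48, 5.13 and 4.91 in wild type heads and 5.50, 5.64 and 5.25 in null heads, which overlap. The difference was 0.29 ± 0.19 (limma adjusted p of 0.321), with 0.39 ± 0.18 (0.172) on its other probe. Without wild type replicate 1 it was 0.44, without wild type replicate 3 it was 0.15, and with quantile normalization it was 0.44 (0.0550). Among 19 genes of the Atf4 axis 10 rose and 2 fell, with Chac1, Stc2, Ddit3 and Trib3 at 5.38, 3.08, 2.50 and 3.04. The falls were 2 of the 4 kinases that phosphorylate the initiation factor upstream of Atf4, Eif2ak2 (-0.94 ± 0.15, 0.00615) and Eif2ak1 (-0.53 ± 0.13, 0.0299). Eif2s1, also in this list, gave -0.29 on its brighter probe and was not called. Its other probe was called lower (-0.70 ± 0.16, limma adjusted p of 0.0265 over probes).

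Of 11 amino acid transporters 6 rose and none fell, with a median of 0.93. Slc7a3, a transporter of cationic amino acids, had levels of -2.06, -2.15 and -1.87 in wild type heads and 1.24, 1.31 and 1.18 in null heads, a 9.65-fold rise (3.27 ± 0.13, limma adjusted p of 1.68e-04). Slc6a9, the glycine transporter, rose by 1.13 ± 0.13 (0.00272; 1.09 on its other probe), and Slc3a2, the common chain of several exchangers, by 1.29 ± 0.19 (0.00530). Slc7a11, the cystine transporter, exceeded background on only 1 of the 3 wild type arrays and rose by 1.67 ± 0.26 (0.00615), but by 0.12 with normexp (0.548).

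Markers of other cells that a head dissection may hold were read from the same fit. Of 10 erythroid markers 1 fell, Klf1 (-1.04 ± 0.24, limma adjusted p of 0.0216), and the embryonic globins Hbb-y, Hbb-bh1 and Hba-x, the brightest of the list, gave -0.07, -0.16 and 0.15. The summed erythroid signal, in multiples of the 75th percentile, ran from 638 to 864 on wild type arrays and from 492 to 1011 on null arrays. No gene was called by limma among 8 endothelial markers, led in signal by Egfl7, Kdr and Cldn5 (1 at an unadjusted p under 0.05; summed signal 25.5 to 29.7 and 23.8 to 26.96; a second, dimmer Kdr probe was called higher at 0.76 ± 0.16, adjusted p of 0.0217 over probes, against -0.22 on the brighter) or among 7 measured heart markers, led by Actc1, Myh7 and Myl4 (0 at an unadjusted p under 0.05; 1.38 to 5.17 and 1.96 to 2.24). Of the 8 trunk Hox genes 4 passed the filter on dim probes and Hoxb8 was called higher (adjusted p of 0.0161). It was dim throughout, at -8.39, -5.63 and -6.31 on wild type arrays, of which 1 was not above background, and -2.84, -4.15 and -3.28 on null arrays, so it passed that filter through the null group alone. Of the 14 head markers 3 rose and 3 fell: Otx2 (0.57), Tfap2a (0.97; 0.83 on its other probe) and Alx4 (0.76) rose, and Barx1 (-2.34), Dlx2 (-1.13) and Prrx1 (-0.85) fell. The other Prrx1 probe pointed the opposite way, at 0.68 ± 0.22 (adjusted p of 0.0734 over probes). The summed head marker signal was 30.7 to 32.0 on wild type and 36.01 to 40.9 on null arrays. It is a sum of linear signals, in which Otx2, the brightest of the list, weighs most. The mean level of Otx2 was 3.87 in wild type and 4.45 in null heads. The part of this signal in the differences of the enzymes was not tested.

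**Figure D5:**
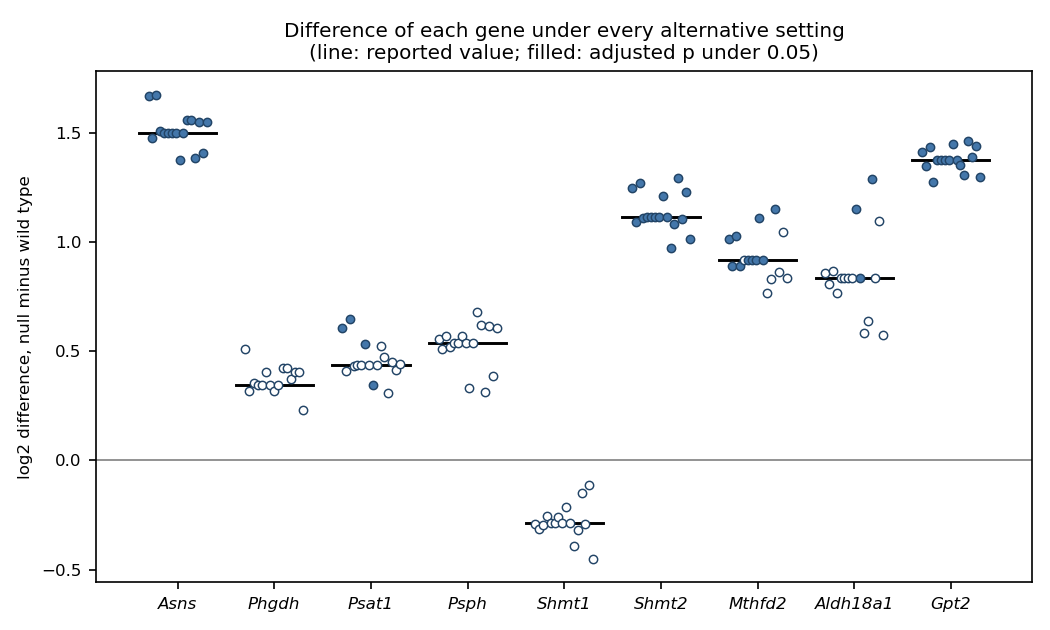
Log2 difference, null minus wild type, of each of 9 enzymes (vertical axis) under every alternative setting that could give a value; lines are the reported differences, and points are filled where the adjusted p was under 0.05. Asns stays between 1.37 and 1.67, Gpt2 between 1.27 and 1.46 and Shmt2 between 0.97 and 1.29 with every point filled, and no enzyme crosses 0.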

How the data were processed

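Feature Extraction 10.7.3.1 (Agilent) made the scanner files, as their headers state. These deposited files hold 1 intensity per spot after background subtraction and detrending, raw median intensities, and flags. A value table that the authors deposited holds log2 values; the sources used here do not say how, and its scaling stays unknown. It lacks both Phgdh probes.

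The processed signal was put on a log2 scale relative to the 75th percentile of non-control spots. After control and outlier spots were removed, replicate spots were averaged. The filter on dim probes kept those with 5 or more measured arrays that exceeded background throughout either group (3 arrays); each gene was read from its brightest probe. Symbols came from RefSeq accessions (GRCm38), which named 26424 of 39429 probes; 1 list entry was updated from a newer symbol. Tests used limma 3.58.1 (R 4.3.3), fitted to all genes or to all probes kept, with Benjamini-Hochberg adjustment. Only the limma fit was tested on simulated data, with values drawn independently for each array and so without effects shared by a slide.

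All members are named, and per list up to 4 genes with the smallest p, Atf4, and in marker lists the 3 brightest and those that changed; the kinases and the genes of the enzyme pairs outside this rule were chosen after their values were seen. Some genes that this rule names are not reported here. Members and lists were chosen with earlier results of these data known. Alternatives were other scalings, background corrections, filters, probe rules, variance models, array weights, the replicate block, a stricter threshold and leaving out each array. Normexp used the median signals with an offset of 50. The number of arrays limits precision.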

Additional observations from a re-analysis of the deposited data

How the results depend on the processing

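No member changed direction under any alternative. Pairs of a member and an alternative were counted without the stricter threshold. Over these 143 pairs, 130 kept their side of the threshold, 6 lost the call (all Mthfd2) and 7 gained it (Psat1 and Aldh18a1). The 4 members called became 2 at an adjusted p under 0.01, Asns and Gpt2, and were 3 to 5 when 1 array was left out. The 5 probes called became 3 without the filter on dim probes, 8 with array weights and 2 at an adjusted p under 0.01, and were 2 to 6 when 1 array was left out.

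Of all genes, 3506 changed. This became 2270 without the filter on dim probes, 6675 with array weights and 1272 at an adjusted p under 0.01, and ran from 1520 without null replicate 1 to 5201 without wild type replicate 3. The 34 called genes of the pathway lists became 57 with array weights, 24 of them lower. Amt, not called, changed sign without wild type replicate 1 (-0.043) and without null replicate 3 (-0.0026), with 0.36 without wild type replicate 3 as its highest value.

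With the replicate block, 5 members were called, Aldh18a1 being the added one, 34 genes of the pathway lists and 3689 genes in all; the block ended the call of Pgam1 (adjusted p of 0.0560) and of none of the other pathway genes and members it was computed for. Replicate numbers coincide with slides and scans. Deviations of same-numbered arrays from their group means correlated across genes at -0.20, 0.15 and 0.42 for numbers 1, 2 and 3, so not every pair deviated together. Arrays of unlike number gave values from -0.52 (wild type 3 with null 2) to 0.49 (wild type 1 with null 2). The values of the same-numbered arrays lie within that range. Of the enzymes measured, Phgdh could not be fitted in the deposited table.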
